A study of Rattus norvegicus with 16 samples.

Results

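The endothelial and angiogenesis genes described here are Vegfa, Kdr, Flt1, Angpt2, Tek, Pecam1, Cdh5, Eng, Vwf and Plvap. Their probes were those of the array whose RefSeq transcript maps to these rat gene symbols, with control spots left out. Of the 10 genes, 9 were measured, by 12 probes, among 15159 genes and 30367 probes in all. No probe matched Vwf, which is not analysed here. Vegfa had 4 probes and the other genes 1 each.

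Endothelial cells line blood and lymphatic vessels, and new vessels sprout when the secreted factor VEGFA binds the receptor KDR on these cells. FLT1 binds the same ligand more tightly and limits how much of it reaches KDR. Angiopoietins act through the receptor TEK and steady or loosen the vessel wall. In the gut the capillaries under the epithelium are fenestrated, their windows closed by diaphragms built of PLVAP, and vessels grow and become leaky during mucosal inflammation and repair.

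Transcript levels were measured in normal distal colon of 16 rats of the cross (ACIxF344)F1-Pirc at 97 days of age, 4 in each of 4 groups: Pirc/+ rats untreated or given dextran sodium sulfate (DSS), and Apc wild type rats of the same cross, here called wildtype, untreated or given DSS. Pirc is a mutant allele of Apc that predisposes rats to colonic tumors. DSS is a polymer that injures the colonic epithelium and provokes colitis. It was given at 4% in the drinking water from day 40 to 47 and from day 54 to 61, so tissue was taken 36 days after its end. Each rat was hybridised to its own one-colour array. The labels do not say which layers of the colon wall were sampled, which bears on every level of a vessel or stromal gene below. The paper on this rat series describes normal epithelium of untreated rats, scraped from the lumen and hybridised to another array format. Whether the rats described here were sampled in that way is not stated. The 75th percentile of signal ranged from 875.36 to 2194 over the arrays, 71.1% to 80.3% of each array's spots exceeded background clearly, and the number of arrays limits the precision.

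A level is given below as log2 of the signal minus log2 of the array's 75th percentile, so that 0 is the 75th percentile. Levels of different genes come from different probes and are not set against each other. A difference is a difference of mean log2 levels, and it passed the threshold when its adjusted p was 0.05 or less (limma, Benjamini-Hochberg over 30367 probes). The arrays lay on 2 slides with 2 rats of every group on each. Among markers of endothelium, Pecam1, Cdh5, Kdr and Esam were well above background on 16 arrays, Cldn5 on 10, Emcn on 4 and Tek on 0.

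Transcripts of 6 of the 9 measured genes were enhanced after DSS over both genotypes, namely Plvap, Eng, Kdr, Pecam1, Angpt2 and Flt1, and 0 were diminished. The count was 4 with normexp background correction and quantile normalization together, where Angpt2 (adjusted p = 0.173) and Flt1 were lost, and 4 with a minimum change of a factor of 2. Over all probes, 10.2% were higher and 6.99% lower in the same comparison. With quantile normalization these shares were 8.8% and 12.3%, and the median difference of all probes shifted by -0.12. The median difference over the 9 genes was 0.92, which is the value of the dim gene Angpt2, against 0.06 over all probes. It was 0.57 with a common floor for dim probes, against 0.00 over all probes. With normexp background correction and quantile normalization together it was 0.10, against -0.03. Over the 7 genes well above background on at least 4 arrays it was 1.23, against 0.02 over the probes that pass the same filter. Whether a higher level reflects more cells of a type or more RNA per cell cannot be told apart in bulk RNA.

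Kdr, the main signalling receptor for VEGFA, stood at -3.62, -3.92, -3.00 and -2.46 in the untreated Pirc rats and at -2.02, -1.59, -1.54 and -1.46 in the DSS-treated Pirc rats. The untreated wildtype rats were at -3.35, -3.38, -3.89 and -2.61 and the DSS-treated ones at -2.02, -2.13, -2.73 and -2.14. Every DSS-treated Pirc rat lay above every untreated Pirc rat, whereas in wildtype the treated rat at -2.73 fell below the untreated rat at -2.61. The Kdr transcript was 2.5-fold higher after DSS over both genotypes (log2 difference 1.32, SE 0.22, adjusted p = 0.000751). Within slide 1 the difference was 1.63 and within slide 2 it was 1.02, and with slide as a block the adjusted p was 0.000795. By mean level the groups ran from DSS-treated Pirc (-1.65, SD 0.25) through DSS-treated wildtype (-2.26, SD 0.32) and untreated Pirc (-3.25, SD 0.65) to untreated wildtype (-3.31, SD 0.53), and neither the upper pair (adjusted p = 0.202) nor the lower pair (adjusted p = 0.968) differed past the threshold.

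Flt1, the decoy-like VEGF receptor, stood at -5.39, -5.76, -5.87 and -5.88 in untreated Pirc rats and at -5.18, -4.71, -4.98 and -5.31 after DSS. In wildtype the levels were -5.63, -5.55, -5.67 and -6.34 untreated and -5.12, -5.01, -5.73 and -5.47 after DSS. The Pirc groups did not overlap and the wildtype groups did. Over both genotypes Flt1 was 1.49-fold higher after DSS (log2 difference 0.57, SE 0.15, adjusted p = 0.015, and 0.00387 with slide as a block), with 0.58 within slide 1 and 0.57 within slide 2. The call was lost with normexp background correction and quantile normalization together, where the difference was 0.07 (adjusted p = 0.264).

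Tek, the receptor of the angiopoietins, was not well above background on any array (0 of 16). Its signal ranged from -9.36 to -7.96, and no fold is given for it.

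The ligand Vegfa did not pass the threshold. By the probe with the highest mean signal it stood at -0.02, -0.85, -0.40 and 0.06 in untreated Pirc rats and at -0.89, 0.10, -0.11 and 0.17 after DSS, and in wildtype at 0.29, 0.33, -0.17 and -0.47 untreated and at -0.97, -1.07, 0.13 and -0.86 after DSS. The groups overlapped in either genotype. The difference over both genotypes was -0.28 (95% interval -0.76 to 0.19, adjusted p = 0.468), made up of 0.12 in Pirc and -0.69 in wildtype. The other 3 Vegfa probes gave differences of 0.12, 0.09 and -0.03 over both genotypes, so the probes differ in sign, and none of the 4 passed the threshold in any of the 7 comparisons.

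Angpt2, an angiopoietin that endothelial cells release when vessels are remodelled, was near the detection limit. Only 2 of the 16 arrays showed it well above background, those of DSS-treated Pirc rats at -7.29 and -6.35, and the other DSS-treated Pirc rats were at -7.48 and -8.27. In untreated Pirc rats its signal was -8.49, -9.21, -9.33 and -8.44. Apart from the rats at -7.29 and -6.35, all these signals are not well above background, and their order is not read. No fold is given for Angpt2 in Pirc rats after DSS, since the mean of the treated rats counts those not well above background. It passed the threshold there (adjusted p = 0.00757). In wildtype it was not well above background in either group. The Angpt2 call rests on its low signals: with a common floor for dim probes the log2 difference in Pirc was 0.24 (adjusted p = 0.411).

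Pecam1, an adhesion molecule at the contacts between endothelial cells that platelets and leukocytes also carry, stood at -3.23, -3.48, -2.31 and -2.17 in untreated Pirc rats and at -1.43, -1.23, -1.22 and -1.32 after DSS. In wildtype it was at -2.82, -2.96, -2.48 and -2.06 untreated and at -1.19, -1.15, -2.31 and -1.80 after DSS. The treated Pirc rats were tightly grouped (SD 0.09) above all untreated Pirc rats, while the treated wildtype rat at -2.31 lay among the untreated ones. Over both genotypes Pecam1 was 2.35-fold higher after DSS (log2 difference 1.23, SE 0.22, adjusted p = 0.00148, and 0.00171 with slide as a block). The difference was 1.87 within slide 1 and 0.59 within slide 2.

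Cdh5, the cadherin of endothelial junctions, did not pass either. Its levels ran from -3.30 to -2.51 in untreated Pirc rats, from -3.07 to -1.94 after DSS, from -2.79 to -2.38 in untreated wildtype rats and from -2.56 to -2.24 after DSS. The groups overlapped, and the difference over both genotypes was 0.18 (95% interval -0.16 to 0.53, adjusted p = 0.532).

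Eng, a co-receptor on endothelium for ligands of the TGF-beta family, stood at -6.23, -6.71, -7.05 and -6.47 in untreated Pirc rats and at -5.13, -4.34, -5.25 and -5.16 after DSS. In wildtype it was at -6.61, -6.67, -6.81 and -6.63 untreated and at -4.45, -5.35, -6.20 and -6.03 after DSS. Treated rats lay above all untreated rats in either genotype, although the treated wildtype rats were spread (SD 0.80). Eng was 2.66-fold higher after DSS over both genotypes (log2 difference 1.41, SE 0.23, adjusted p = 0.000642, and 0.000239 with slide as a block). The difference was 1.74 within slide 1 and 1.08 within slide 2.

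Plvap, the diaphragm protein of fenestrated capillaries, stood at 0.02, -0.34, 0.64 and 0.20 in untreated Pirc rats and at 1.46, 1.61, 1.75 and 1.83 after DSS. In wildtype it was at -0.29, -1.09, -1.15 and -0.36 untreated and at 1.48, 1.30, 0.21 and 0.40 after DSS. Treated and untreated rats did not overlap in either genotype. Plvap was 2.93-fold higher after DSS over both genotypes (log2 difference 1.55, SE 0.21, adjusted p = 0.000185, and 0.000316 with slide as a block), with 1.89 within slide 1 and 1.21 within slide 2. The mean levels ran from DSS-treated Pirc (1.66, SD 0.16) through DSS-treated wildtype (0.85, SD 0.64) and untreated Pirc (0.13, SD 0.41) to untreated wildtype (-0.72, SD 0.46).

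**Figure D1:**
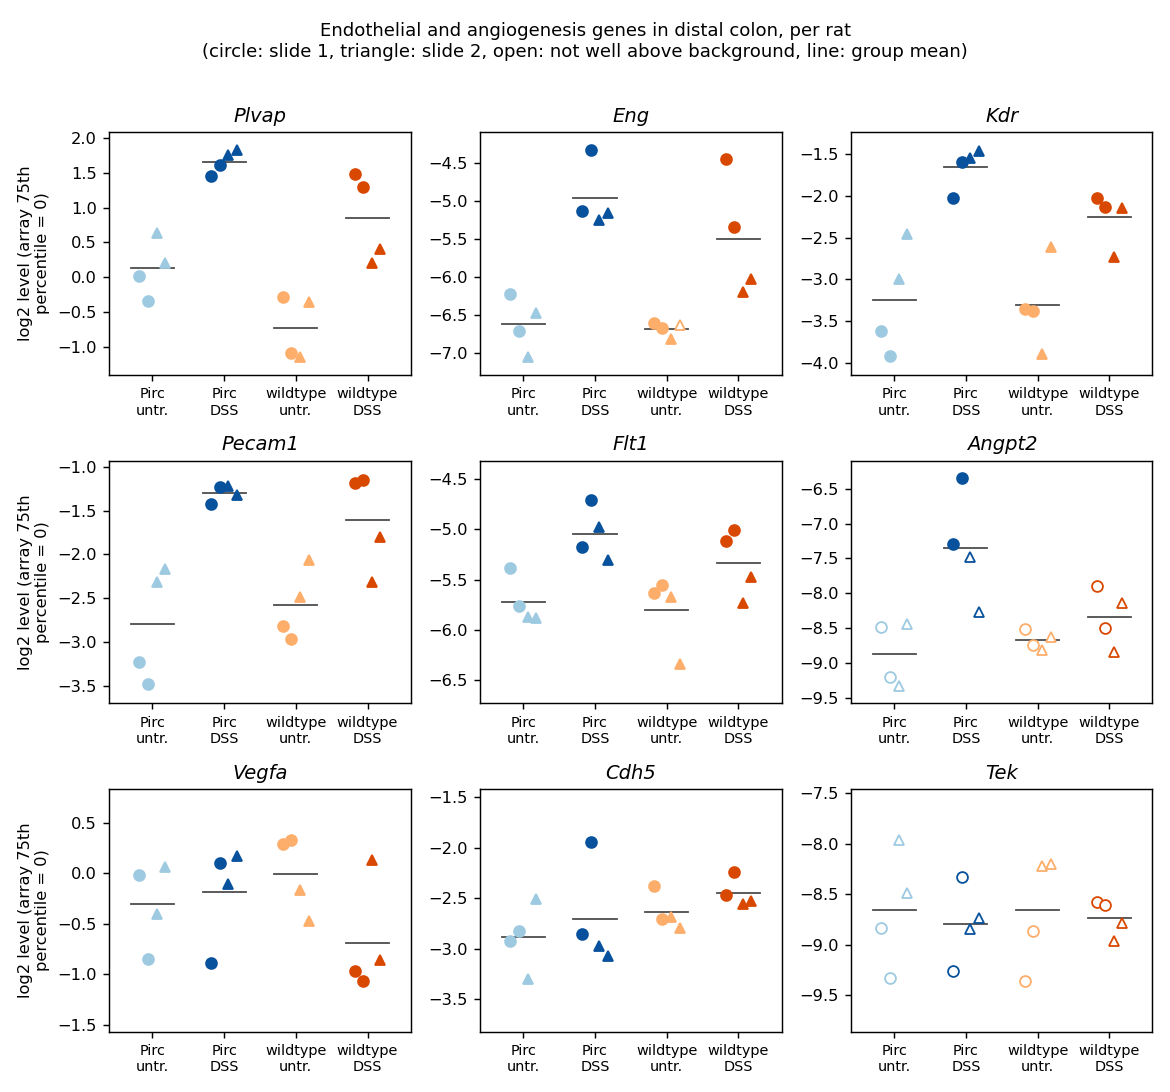
Log2 level of each measured gene in every rat, relative to the 75th percentile of its array, by group, with a separate scale for each gene; circles are slide 1, triangles slide 2, open symbols signals not well above background, and lines group means. All 4 DSS-treated Pirc rats lie above all untreated Pirc rats for Plvap, Eng, Kdr, Pecam1 and Flt1, the groups overlap for Vegfa and Cdh5, and most signals of Angpt2 and all of Tek are not well above background.

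Within Pirc rats, DSS enhanced the same 6 transcripts and diminished 0 of the 9, where 8.14% of all probes were higher and 6.51% lower (7.28% and 11% with quantile normalization). The differences were 1.65 for Eng (SE 0.32, adjusted p = 0.00349), 1.60 for Kdr (SE 0.31, adjusted p = 0.00327), 1.53 for Plvap (SE 0.30, adjusted p = 0.00352), 1.50 for Pecam1 (SE 0.32, adjusted p = 0.00554) and 0.68 for Flt1 (SE 0.21, adjusted p = 0.0434). Angpt2 passed as well (adjusted p = 0.00757), with no fold for the reason given above. Treated and untreated Pirc rats did not overlap for Eng, Kdr, Plvap, Pecam1 and Flt1, and 8.88% of all probes had every treated Pirc rat above every untreated one. The Flt1 call was lost in 9 of the 16 fits that left out a rat (adjusted p up to 0.109), and also with quantile normalization (0.0636) and without moderation (0.0516). With only the Pirc groups in the fit Flt1 (0.0648) and Angpt2 (0.0537) were both lost and 4 of the 9 genes passed.

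Within wildtype rats, DSS enhanced 1 of the 9 transcripts, Plvap, and diminished 0, where 2.94% of all probes were higher and 0.899% lower (2.64% and 1.89% with quantile normalization). Plvap differed by 1.57 (SE 0.30, adjusted p = 0.0113). Eng differed by 1.17 (SE 0.32, adjusted p = 0.0597), Kdr by 1.05 (SE 0.31, adjusted p = 0.0782), Pecam1 by 0.97 (SE 0.32, adjusted p = 0.114) and Flt1 by 0.47 (SE 0.21, adjusted p = 0.279), all short of the threshold. At an unadjusted p under 0.05 the count was 6, of which 5 were higher and Vegfa was lower, and the share of all probes was 16.8%. That Vegfa difference is of its brightest probe, with -1.33 within slide 1 and -0.05 within slide 2. Its other probes gave -0.19, -0.25 and -0.11 in wildtype, none with an unadjusted p under 0.05. Treated and untreated wildtype rats did not overlap for Eng and Plvap, as was so in the same direction for 8% of all probes. With slide as a block Eng passed as well (adjusted p = 0.0279), and with only the wildtype groups in the fit Plvap did not (adjusted p = 0.066).

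Levels of the treated wildtype rats differed by slide. Rats 14 and 18 on slide 1 stood above rats 22 and 26 on slide 2 for Pecam1, Eng, Plvap, Flt1, Cdh5 and, narrowly, Kdr. For Vegfa they stood below them. How many of all probes show such an order was not counted, so it is not read as particular to these genes. Within slide 1 the DSS difference in wildtype was 2.08 for Plvap, 1.74 for Eng and 1.72 for Pecam1. Within slide 2 the same differences were 1.05, 0.60 and 0.22. Leaving out rat 22 brought 3 genes past the threshold in wildtype, where 3.13% of all probes were higher and 0.78% lower, with 1.40 for Eng (adjusted p = 0.0262) and 1.20 for Pecam1 (adjusted p = 0.0486) beside Plvap.

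No DSS effect on these genes was shown to differ between the genotypes. The DSS effect in Pirc minus that in wildtype was 0.81 for Vegfa (95% interval -0.13 to 1.75, adjusted p = 0.539), 0.55 for Kdr (-0.39 to 1.48, adjusted p = 0.697), 0.53 for Pecam1 (-0.43 to 1.49, adjusted p = 0.716), 0.47 for Eng (-0.50 to 1.45, adjusted p = 0.762) and -0.03 for Plvap (-0.95 to 0.88, adjusted p = 0.984). With limma 0 of the 9 genes passed the threshold and 1 had an unadjusted p under 0.05, Angpt2, for which no difference is given because it was not well above background in 3 of the 4 groups. Of all probes 0.0428% passed, and 3234 (10.6%) had an unadjusted p under 0.05. The intervals are wide enough to hold a sizeable difference in either direction for Plvap.

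**Figure D2:**
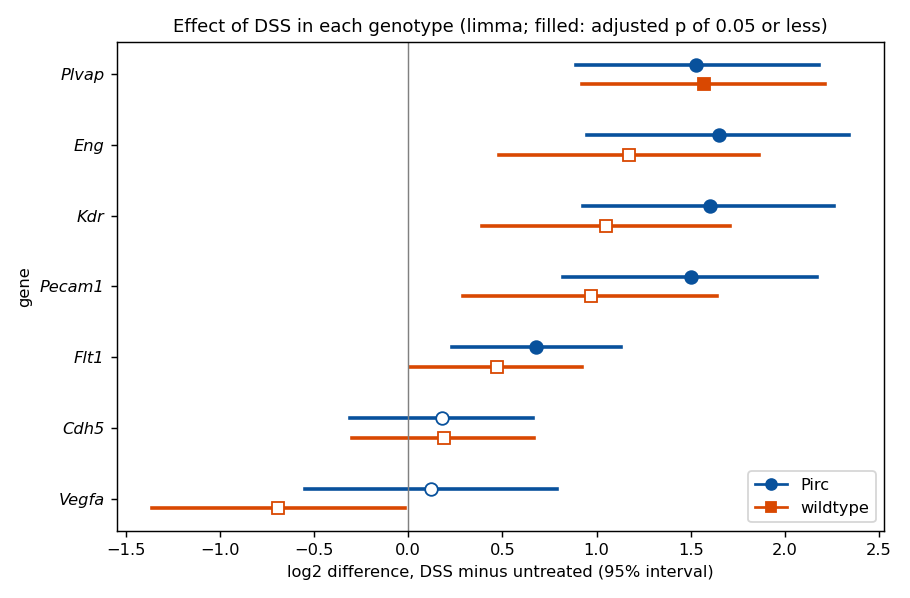
Log2 difference between DSS-treated and untreated rats with its 95% interval (limma, 4 rats per group) for the 7 genes well above background on at least 15 arrays, in Pirc (circles) and wildtype (squares); filled symbols have an adjusted p of 0.05 or less. Plvap lies at 1.53 in Pirc and 1.57 in wildtype, Eng, Kdr and Pecam1 have higher values in Pirc with overlapping intervals, and Cdh5 and Vegfa have intervals that cross or nearly reach 0.

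Of the 9 genes, Plvap alone differed between the genotypes over both treatments. It was 1.78-fold higher in Pirc than in wildtype rats (log2 difference 0.83, SE 0.21, adjusted p = 0.016, and 0.0196 with slide as a block). Of all probes 9.26% were higher and 8.27% lower in Pirc in this comparison. A count of 1 in 9 genes is near these shares, so it is not read as particular to Plvap. The Plvap difference was 0.85 in untreated rats (adjusted p = 0.34) and 0.82 after DSS (adjusted p = 0.075), and the genotypes overlapped within either treatment. It was 0.34 within slide 1 and 1.33 within slide 2. With a minimum change of a factor of 2 the Plvap call was lost.

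In untreated rats 0 of the 9 genes and 0% of all probes passed the threshold between Pirc and wildtype in limma. At an unadjusted p under 0.05 the counts were 1 gene and 3103 probes (10.2%). After DSS 0 of the 9 passed, whereas 18.2% of all probes did in either direction, and 2 of the 9 had an unadjusted p under 0.05, against 31.3% of all probes. Kdr was higher in every DSS-treated Pirc rat than in every DSS-treated wildtype rat (log2 difference 0.60, adjusted p = 0.202), as were 9.62% of all probes. The nearest rats of these groups, 12 and 14, both stood at -2.02 as rounded, so this order is not read as particular to Kdr. Angpt2, well above background in 2 DSS-treated Pirc rats and 0 DSS-treated wildtype rats, fell just short of the threshold (adjusted p = 0.0526), and no fold is given. With slide as a block it passed (adjusted p = 0.0425), and with a common floor for dim probes it did not (adjusted p = 0.367).

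Markers of other cells moved with the endothelial genes after DSS, and their part in the differences above was not tested. Beside the marker counts that follow, 10.2% of all probes were higher and 6.99% lower after DSS over both genotypes. Their levels are summed over each list, with the 75th percentile of the array set to 100. All 8 of 8 fibroblast markers rose over both genotypes, with Dcn, a matrix proteoglycan, 8.31-fold higher (adjusted p = 0.000184) and Col1a1 5.12-fold (adjusted p = 0.000363), while Lum was at least 5.34-fold higher in Pirc. The fibroblast sum, whose brightest probe was that of Col1a2, was 162, 168, 273 and 274 in untreated Pirc rats, 593, 1510, 568 and 962 after DSS, 145, 143, 149 and 195 in untreated wildtype rats and 1500, 836, 269 and 324 after DSS. The treated wildtype rats that were high in the sum, 14 and 18, were the ones high in Pecam1, Eng and Plvap. Fap, a protease of activated fibroblasts, was higher in Pirc over both treatments (adjusted p = 0.0481), though only 1 of 4 untreated Pirc and 0 of 4 untreated wildtype arrays showed it well above background. With a rat left out the Fap call held in 3 of 16 fits (adjusted p up to 0.0937).

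Of 10 measured leukocyte markers 7 rose after DSS and 0 fell. The neutrophil calprotectin subunits S100a8 and S100a9 were 11.9-fold (adjusted p = 7.3e-05) and 8.02-fold higher (adjusted p = 4.61e-05), and the leukocyte integrin chain Itgb2, well above background on 3 of 8 untreated arrays, was also higher (adjusted p = 3.72e-05). The leukocyte sum, with the probe of Laptm5 the brightest, was 264, 276, 282 and 349 in untreated Pirc rats, 1300, 4260, 3780 and 2020 after DSS, 210, 185, 155 and 241 in untreated wildtype rats and 800, 662, 644 and 396 after DSS. Treated rats lay above all untreated rats in both genotypes. In Pirc over both treatments S100a9, S100a8 and Cd3g were higher, by 2.31, 1.81 and 0.64.

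Platelet markers bear on Pecam1, which platelets share. Pf4 and Ppbp, both platelet chemokines, rose, 2 of 5 measured markers, and 0 fell. Pf4 was 7.43-fold higher (adjusted p = 3.72e-05), and no fold is given for Ppbp (adjusted p = 0.000759), which was well above background on 1 of 4 arrays in either wildtype group. Gp1ba, a defining platelet receptor, was well above background on 0 arrays and Clec1b on 2. The platelet sum, whose brightest probe was that of Gp9, was 21.3, 22.7, 20.5 and 23.8 in untreated Pirc rats and 43.1, 56.4, 80.3 and 56.0 after DSS. In wildtype it was 25.6, 22.1, 22.6 and 27.7 untreated and 79.6, 52.2, 33.0 and 56.7 after DSS. Ppbp was also higher in Pirc over both treatments (adjusted p = 0.0044).

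Squamous or urothelial markers, 5 of 6, rose as well over both genotypes. Within Pirc 6 of 6 rose (8.14% of all probes), and within wildtype 1 of 6 (2.94% of all probes). Krt14 was 21.6-fold higher (adjusted p = 0.00125) and Krt5 12.7-fold (adjusted p = 0.00174). Krt13 was higher as well over both genotypes (adjusted p = 0.000176). In wildtype it was well above background in 0 of 4 untreated and 3 of 4 DSS-treated rats, so no fold is given. Their sum, with the probe of Krt14 the brightest, was 30.7, 30.7, 22.4 and 26.8 in untreated Pirc rats, 795, 1880, 4370 and 3550 after DSS, 31.3, 30.2, 22.5 and 22.8 in untreated wildtype rats and 117, 262, 2040 and 27.1 after DSS. Wildtype rat 22, the highest of its group in these markers, was the lowest of its group for Plvap, Eng, Kdr, Pecam1 and Flt1. Upk3a, a urothelial protein, was higher in Pirc over both treatments, by 0.64.

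Of 7 smooth muscle markers 1 rose (Tagln, adjusted p = 0.0441, well above background on 5 of 8 untreated arrays) and 1 fell (Des, by 1.49 on the log2 scale, adjusted p = 0.00349). With a rat left out the Tagln call held in 3 of 16 fits (adjusted p up to 0.0914). Their sum, with the probe of Des the brightest, was 132, 103, 108 and 145 in untreated Pirc rats, 86.7, 376, 66.4 and 100 after DSS, 103, 153, 184 and 697 in untreated wildtype rats and 140, 122, 92.5 and 1160 after DSS. Rats 16, 25 and 26 thus stood apart at over 300. Without these 3 rats 6 of the 9 genes were still higher after DSS over both genotypes (9.16% of all probes higher, 6.84% lower) and 5 in Pirc (6.86% and 6.78%), where Flt1 was lost (0.57, adjusted p = 0.0661). The count in wildtype remained 1 (3.19% and 1.25%), and over both treatments Pirc then differed for 2 of the 9 (10.3% and 11.9%). Lmod1 was well above background on 0 arrays.

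The 3 red blood cell markers gave 0 calls, and their sum, with the probe of Hbb the brightest, ranged from 211 to 1110 in untreated Pirc rats, 701 to 5790 after DSS, 1050 to 6880 in untreated wildtype rats and 1080 to 11700 after DSS. The 9 colon epithelium markers gave 0 calls for DSS over both genotypes. Their sum, with the probe of Lgals4 the brightest, ranged from 52100 to 73200, 55200 to 73400, 59900 to 75000 and 65600 to 80100 in the same order. Within Pirc 1 of the 9 was lower after DSS, where 6.51% of all probes were. In DSS-treated Pirc rats 4 were lower than in DSS-treated wildtype rats, where 8.76% of all probes were. In Pirc over both treatments Cdh1, Krt8 and Vil1 were lower, by -0.43, -0.33 and -0.49, and with a rat left out the Krt8 call held in 9 of 16 fits.

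The wider pathway was followed through 108 further genes in 10 lists, of which 98 were measured. After DSS over both genotypes 38 rose and 1 fell, with a median difference of 0.37 over the 98. Of all probes 10.2% were higher and 6.99% lower. In Pirc 36 rose and 2 fell (8.14% and 6.51% of all probes), and in wildtype 22 rose and 1 fell (2.94% and 0.899%). The difference between the DSS effects passed for 0 of the 98 in limma, and 13 had an unadjusted p under 0.05, near the 10.6% of all probes. With slide as a block the counts for DSS over both genotypes were 40 and 1, and the median was 0.64 within slide 1 and 0.22 within slide 2.

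Among VEGF ligands and receptors 1 of 7 rose and 0 fell, a count near the 10.2% of all probes that were higher. Pgf, placental growth factor, which binds FLT1, was 2.9-fold higher (log2 difference 1.53, SE 0.22, adjusted p = 0.000229). Of the 5 measured angiopoietin, angiopoietin-like and Tie genes 2 rose, the angiopoietin-like gene Angptl4 and the dim receptor gene Tie1. Angptl4, an angiopoietin-like inhibitor of lipoprotein lipase, was 8.43-fold higher (log2 difference 3.08, SE 0.28, adjusted p = 1.38e-05). Tie1, the partner receptor of TEK, passed in Pirc rats after DSS (adjusted p = 0.00418). It was well above background only in 2 DSS-treated Pirc rats, so no fold is given.

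Pan-endothelial genes split. Of 23 measured, 12 rose, 1 fell and 10 did not pass. Their summed level, in which the brightest probes weigh most, was lower after DSS. It ran from 393 to 535 in untreated Pirc rats and from 280 to 336 after DSS. In wildtype it ran from 370 to 454 untreated and from 301 to 386 after DSS. The sum of the members was higher, from 167 to 281 and 412 to 562 in Pirc, and from 178 to 251 and 260 to 425 in wildtype. Thbd, the thrombin receptor thrombomodulin, was 4.91-fold higher (adjusted p = 0.000547) and S1pr1, a receptor for sphingosine 1-phosphate, 4.58-fold (adjusted p = 0.00257). Cldn5, an endothelial tight junction protein, also rose (adjusted p = 0.000958), from untreated arrays of which 2 of 8 showed it well above background. Clec14a, an endothelial lectin, fell by 1.21 on the log2 scale (SE 0.17, adjusted p = 0.000255). Esam, a junction protein well above background on 16 arrays like Cdh5, differed by -0.27 (adjusted p = 0.216).

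Genes of sprouting and Notch signalling rose in 3 of 12 cases and fell in 0. Adgrl4, an adhesion receptor of sprouting endothelium, was 3.96-fold higher (adjusted p = 0.000322). Apln, a peptide secreted by tip cells, passed over both genotypes (adjusted p = 0.00134) and not in wildtype (adjusted p = 0.127). In wildtype 2 DSS-treated arrays and 0 untreated ones showed it well above background, so no fold is given. Esm1, a tip cell marker, passed in Pirc rats (adjusted p = 0.00984) and not in wildtype (adjusted p = 0.604), but it was well above background on 1 of 4 DSS-treated arrays in either genotype and on 0 untreated ones, so no fold is given.

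Around Eng, 2 of 12 genes of endoglin and ALK1 signalling rose and 0 fell, where 10.2% of all probes were higher and 6.99% lower. Acvrl1, the endothelial receptor ALK1, was 1.83-fold higher (adjusted p = 0.00133). Tgfb1, the ligand TGF-beta 1, was higher as well (adjusted p = 2.33e-06), with no fold given since 1 of 4 untreated wildtype arrays showed it well above background. Molecules by which endothelium holds leukocytes rose in 4 of 7 cases. Madcam1, the homing receptor ligand of gut venules, was 9.51-fold higher (adjusted p = 3.24e-05) and Icam1 4.88-fold (adjusted p = 1.28e-05). Vcam1 rose as well (adjusted p = 0.000478), from untreated arrays of which 4 of 8 showed it well above background.

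Lymphatic genes rose in 3 of 5 cases. The chemokine Ccl21 was 10.8-fold higher (log2 difference 3.44, SE 0.52, adjusted p = 0.000366) and Pdpn, podoplanin, 8.59-fold (adjusted p = 1.99e-05). Lyve1, a hyaluronan receptor of lymphatic endothelium, was at least 12.2-fold higher in Pirc rats after DSS (adjusted p = 0.000277). Fibroblasts also express Pdpn, and macrophages Lyve1.

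Pericyte and mural genes rose in 7 of 9 cases. Mcam, an adhesion molecule of pericytes and endothelium, was higher (adjusted p = 0.00084), from untreated wildtype arrays of which 2 of 4 showed it well above background. The proteoglycan gene Cspg4 was 3.91-fold higher (adjusted p = 0.000867). Higd1b was at least 5.74-fold higher in Pirc rats (adjusted p = 0.00377). Of the 7 measured angiogenesis inhibitors 3 rose. Col18a1, whose cleavage yields endostatin, was 5.76-fold higher (adjusted p = 6.48e-05), the matrix protease Adamts1 4.54-fold (adjusted p = 0.00122) and thrombospondin gene Thbs2 at least 5.37-fold in Pirc and at least 5.15-fold in wildtype. Genes of the hypoxia response gave 1 rise among 11, Ndrg1, 2.1-fold (adjusted p = 0.000921), and 0 falls. That count is near the 10.2% of all probes that were higher.

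Between genotypes over both treatments 12 of the 98 genes were higher and 8 lower in Pirc, where 9.26% and 8.27% of all probes were, so these shares are near the background. With normexp background correction and quantile normalization together 9 were higher and 10 lower. Angptl4 was 2.87-fold higher (adjusted p = 0.00352), Madcam1 2.62-fold (adjusted p = 0.0131) and Icam1 1.68-fold (adjusted p = 0.0185), and Tgfb1 (adjusted p = 0.0068) and Mcam (adjusted p = 0.0116), both dim in untreated wildtype rats, were higher as well. Sema3a, a repellent of vessel growth, was higher over both treatments (adjusted p = 0.0102) and did not pass in untreated rats (adjusted p = 0.395). Nrp2, a co-receptor for VEGF ligands, was likewise higher over both treatments (adjusted p = 0.0321) and did not pass in untreated rats (adjusted p = 0.326). Each was well above background in 3 of 4 untreated Pirc rats and 0 of 4 untreated wildtype rats, so no fold is given. Vegfb, another VEGF ligand, differed by 0.47 over both treatments (adjusted p = 0.0219).

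Cd93 (0.90) and Notch4 (0.64) were also higher in Pirc, as were Nos3 and Lmo2, each well above background on 1 of 4 untreated wildtype arrays. With a rat left out the call held in 5 of 16 fits for Cd93, 6 for Lmo2, 7 for Nrp2 and 10 for Nos3. Lower in Pirc were Unc5b, a guidance receptor of tip cells, by -1.20 (adjusted p = 0.00387), Bnip3 by -1.16 (adjusted p = 0.0129), Epas1, the endothelial hypoxia-inducible factor, 2-fold (adjusted p = 0.00582), Angptl2 by -0.94, Smad7 by -0.77, Cx3cl1 by -0.70, Vhl by -0.59 and Tal1 by -0.54. The 3 that fell in the hypoxia list (Epas1, Bnip3 and Vhl) are the transcription factor, a mitochondrial target and the ligase that degrades the factor. In untreated rats 0 of the 98 passed in limma and 14 had an unadjusted p under 0.05, against 10.2% of all probes. After DSS 12 were higher and 8 lower in Pirc, near the shares of all probes (9.47% and 8.76%).

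Over the 16 arrays the levels of Kdr, Flt1, Pecam1, Eng and Plvap varied together, with Pearson r between 0.57 and 0.93 over their 10 pairs, highest for Kdr with Pecam1. Vegfa had r of -0.30 to -0.12 with the same genes and Cdh5 0.06 to 0.40. The arrays share the group differences described above, so these r are descriptions. Against the mean of Kdr, Flt1, Pecam1, Cdh5 and Plvap, which are the genes well above background on all arrays with the ligand Vegfa left out, the closest of 10349 other genes were Col4a1, a collagen of the basement membrane (r = 0.982), Hlx, a homeobox gene (0.979), Igfbp4, which binds insulin-like growth factors (0.977), Dchs1, a large cadherin (0.973) and Vsir, an immune checkpoint receptor (0.973). These genes were chosen by their likeness to a mean that holds Kdr, Flt1, Pecam1 and Plvap, all higher after DSS on the same arrays. No test of DSS is therefore given for them. Cdh5, also in that mean, did not pass for DSS. Its r with the mean of the rest was 0.20, against 0.69 to 0.90 for the others.

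The promoter table of RefSeq (build GRCr8) held 5 of the 10 genes, each from 250 bases before to 50 after the start of the gene. The promoters of 4 genes that rose together after DSS are printed to show what sequence their starts do and do not share. Capitals mark AGGAAG on either strand, a short string around the GGAA core that ETS factors of endothelium bind, which 34.5% of all 33469 promoters of 300 bases hold. Plvap, Eng and Flt1 hold it 2 times each and Kdr 0 times, and both Vegfa entries hold it 0 times. The hypoxia core ACGTG, found in 19.3% of promoters, was in 0 of the 6 entries. A match is a description of letters, not a site.
Plvap, chr16:18231230-18231529, - strand: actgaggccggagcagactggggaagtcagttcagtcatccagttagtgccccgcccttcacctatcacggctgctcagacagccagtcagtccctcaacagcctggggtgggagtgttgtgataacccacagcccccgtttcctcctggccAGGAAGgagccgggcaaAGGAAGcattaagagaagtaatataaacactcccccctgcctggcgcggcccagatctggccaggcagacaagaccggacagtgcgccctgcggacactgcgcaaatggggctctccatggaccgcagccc
Eng, chr3:36332029-36332328, + strand: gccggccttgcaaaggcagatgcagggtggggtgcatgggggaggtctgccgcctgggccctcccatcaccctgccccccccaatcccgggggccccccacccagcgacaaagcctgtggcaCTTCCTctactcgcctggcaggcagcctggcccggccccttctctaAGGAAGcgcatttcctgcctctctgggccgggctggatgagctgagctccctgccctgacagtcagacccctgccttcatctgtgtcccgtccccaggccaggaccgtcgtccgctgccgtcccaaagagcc
Flt1, chr12:12333180-12333479, + strand: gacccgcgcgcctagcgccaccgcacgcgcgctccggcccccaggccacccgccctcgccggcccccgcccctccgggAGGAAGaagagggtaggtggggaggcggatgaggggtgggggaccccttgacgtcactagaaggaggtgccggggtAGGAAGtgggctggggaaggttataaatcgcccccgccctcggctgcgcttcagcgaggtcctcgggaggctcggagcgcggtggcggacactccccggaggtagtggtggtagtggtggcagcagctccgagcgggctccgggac
Kdr, chr14:32571813-32572112, + strand: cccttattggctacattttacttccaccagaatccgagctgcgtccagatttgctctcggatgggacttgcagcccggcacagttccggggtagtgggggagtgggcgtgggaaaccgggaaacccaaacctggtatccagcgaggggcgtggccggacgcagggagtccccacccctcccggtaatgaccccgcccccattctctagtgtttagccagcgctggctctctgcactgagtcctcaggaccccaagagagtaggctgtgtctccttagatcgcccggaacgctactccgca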

How the data were processed

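The authors deposited Feature Extraction 10.7.3.1 output per array, in which the processed signal is a linear intensity with background subtracted and without scaling between arrays. Each of the 16 arrays holds 62976 spots, and 4259 control spots were dropped. Levels were averaged over the spots of a probe without outlier-flagged spots (25 probe values had only flagged spots, which were kept). Probes were named through accessions in the RefSeq table of GRCr8, used for names only: 18006 matched 15159 symbols and 12361 matched none. The probe with the highest mean level stands for a gene, and a probe is well above background where at least 0.5 of its spots are.

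The test was limma 3.58.1 (R 4.3.3), with a mean for each group over the 16 arrays, in 7 comparisons: the effects of DSS and of Pirc, pooled and within each stratum, and the difference of the DSS effects between genotypes. It was tested on simulated data, with no outcome given here, so no value above rests on that. A bound ("at least") sets the brighter group's mean against the detection limit of the dim group's arrays, or the probe's own signal where higher. For Krt13, Nrp2 and Sema3a that mean would include a rat not well above background, so no bound is given for them. All rats of a group share an array column, and these cannot be told apart. Identical arrays numbered 0, as did saturated spots.

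The members, the gene lists and the tests were chosen with earlier results of these data known. Named were all members, from each other list up to 3 largest rises and 3 largest falls past the threshold for DSS over both genotypes, Pirc over both treatments or the difference between DSS effects, and the 5 genes nearest the members' mean. The difference of Esam and the arrays showing Gp1ba, Clec1b and Lmod1 were added after their values were seen. Alternatives were quantile normalization, median scaling, normexp with offset 50 followed by quantile normalization, a common floor, a filter on dim probes (well above background on 4 arrays or more), slide alone or with array row as a block, flagged spots kept, fewer groups in the fit, no moderation, a minimum change of a factor of 2, probes averaged per gene and each rat left out. Leaving out 3 rats high in smooth muscle markers was added after the data were seen.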

Additional observations from a re-analysis of the deposited data

Results flagged for a closer look

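Among 36 groups of 4 rats (9 genes in 4 groups), 4 held a rat far from the other 3, by the gap to its nearest neighbour as a share of the group's range against Dixon's critical value for 4 at the 5% level. Chance alone flags about 1 in 20 such groups. DSS-treated wildtype rat 22 was the lowest for Kdr, at -2.73 against -2.14 to -2.02 (share 0.833), and the highest for Vegfa, at 0.13 against -1.07 to -0.86 (share 0.83). Untreated wildtype rat 25 was the lowest for Flt1, at -6.34 against -5.67 to -5.55 (share 0.851), and it was also the untreated rat highest in smooth muscle markers, at 697. DSS-treated Pirc rat 16 was the highest for Eng, at -4.34 against -5.25 to -5.13 (share 0.866). It was also the highest of its group in the smooth muscle (376), fibroblast (1510) and leukocyte (4260) sums. In the squamous or urothelial sum (1880) and the platelet sum (56.4) it was not. The causes were not tested.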

How the results depend on the processing

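The count of 6 genes higher after DSS over both genotypes was 4 with normexp followed by quantile normalization (Angpt2 and Flt1 lost) and with a minimum factor of 2, 5 with a common floor (Angpt2 lost, adjusted p = 0.6) and with the filter on dim probes, and 6 without any single rat. In Pirc the count of 6 after DSS was 4 with only the compared groups in the fit (Flt1 and Angpt2 lost), and the Flt1 call was also lost with quantile normalization, with normexp followed by quantile normalization, without moderation and with a minimum factor of 2. The other counts of members moved as follows, and the causes were not tested. In wildtype, DSS passed for 2 genes with the filter on dim probes, with slide as a block, with a block for slide plus array row, and with probes averaged per gene, for 0 with only the compared groups in the fit, and for 1 to 3 without single rats. For Pirc over both treatments the count was 0 with a minimum factor of 2, 2 without the 3 rats high in smooth muscle markers (1 higher, 1 lower), and 1 to 2 without single rats. For Pirc after DSS it was 1 in place of 0 with quantile normalization, median scaling, slide as a block and probes averaged (Angpt2 in each), and 0 to 2 without single rats. Of the other pathway genes, DSS in wildtype gave 14 with normexp followed by quantile normalization and 9 with only the compared groups in the fit, in place of 23, and 10 to 27 without single rats. Pirc over both treatments gave 7 with a minimum factor of 2 in place of 20, and Pirc after DSS gave 9 with only the compared groups in the fit in place of 20, and 11 to 22 without single rats. The difference between DSS effects gave 1 with normexp followed by quantile normalization in place of 0. Values that had not passed changed sign: the difference between DSS effects for Plvap was 0.03 with normexp followed by quantile normalization and -0.25 to 0.18 without single rats, the DSS difference in Pirc was -0.06 to 0.36 for Vegfa and -0.08 to 0.31 for Cdh5 without single rats, and -0.08 for Cdh5 without the 3 rats high in smooth muscle markers. Within a slide, several differences that had not passed changed sign, among them Vegfa after DSS over both genotypes (0.08, slide 2), Kdr and Pecam1 for Pirc over both treatments (-0.06 and -0.32, slide 1), Kdr for Pirc in untreated rats (-0.40, slide 1), Pecam1 for Pirc after DSS (-0.16, slide 1), Cdh5 after DSS in Pirc (-0.12, slide 2) and the difference between DSS effects for Plvap (0.31, slide 2). Of the 492 values of members under alternatives other than a single rat left out, 449 kept direction and side of the threshold or, within a slide, moved by less than the spread. Signal over background limits Angpt2 and Tek most.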
